A study of Rattus norvegicus with 26 samples.

Results

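The mitochondrial respiratory chain was represented on the array by 55 of the 4736 genes it measured, or 101 of its 8799 probe sets. A probe set was taken where the platform's probe-to-gene table gave it 1 gene whose symbol began with Nduf, Sdha to Sdhd, Uqcr, Cox4 to Cox8 or Atp5. Values were log2 expression in hepatocytes, cultured from female Sprague Dawley rats and exposed for 48 hours to TCDD, to PCB 126 or to the vehicle alone, 0.5% DMSO. TCDD is a chlorinated dibenzo-p-dioxin and PCB 126 a coplanar chlorinated biphenyl, and both bind the aryl hydrocarbon receptor (AhR). Each of 2 pools combined the cells of 3 animals, whose age is not given in the sources used here. Pool 1 had 11 arrays and pool 2 had 15. Each pool had 1 vehicle array. Doses are written as log10 M. Both pools received TCDD at -14, -12, -10, -8 and -6.5 and PCB 126 at -12, -10, -8, -6 and -5, and pool 2 alone received each chemical at -11 and -9. Each dose thus had 1 array per pool at most, and the tests rest on how arrays of the same pools scatter, not on how animals differ.

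The respiratory chain lies in the inner mitochondrial membrane and passes electrons from NADH and succinate to oxygen. Complex I oxidises NADH, complex II oxidises succinate, complex III passes electrons to cytochrome c, complex IV reduces oxygen, and complex V, the ATP synthase, uses the resulting proton gradient to make ATP. In hepatocytes this supply carries gluconeogenesis, urea synthesis and biosynthesis. Most subunits are encoded in the nucleus, and their promoters are known for sites of nuclear respiratory factor 1 and of ETS factors.

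Complex I had 49 probe sets of 27 genes, complex II 2 probe sets of 2 genes, complex III 6 of 3, complex IV 27 of 13 and complex V 17 of 10. Some genes with these symbols are not subunits of the complex they were counted with. Ndufaf3 and Sdhaf2 are assembly factors, Cox7a2l acts in supercomplex assembly, Atp5if1 inhibits the ATP synthase, Cox6c-ps1 is a pseudogene, and Ndufa4, counted here with complex I, is now also counted with complex IV. Tests were made on 87 member probe sets of 54 genes that passed a filter on dim signals. The 14 others lay between 0.49 and 3.77 log2 on all arrays. They were 4 probe sets of Ndufa4l2, 2 of the muscle isoform Cox6a2, and 1 each of Cox6a1, Cox6c, Cox6c-ps1, Cox8b, Ndufab1, Ndufb11, Ndufb8 and Ndufs8. Cox6c-ps1 was the only gene with no probe set that passed.

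Promoter sequences from RefSeq (build GRCr8) matched 47 of the 55 genes, and each covered 250 bases before the start of the gene and 50 after it. Both strands were searched for the motif of nuclear respiratory factor 1, for the ETS core CCGGAAG and for GCGTG, the core to which the AhR binds. The motif of nuclear respiratory factor 1 occurred in 6 of the 47 (12.8%) and in 4.25% of all 33469 promoters of that length. The ETS core occurred in 10 (21.3%, against 8.75%), and GCGTG in 24 (51.1%, against 29.7%). No motif match overlapped another in the sequences printed here. These are matches of letters and not sites shown to be bound. The 250 bases before the start of 2 genes are printed to show the matches in place, chosen after their values were seen, with the motifs in capitals. Sdha (chr1:30764303-30764552, plus strand) held 2 motifs of nuclear respiratory factor 1 and 1 GCGTG, and Cox8a (chr1:213833624-213833873, minus strand) held 2 ETS cores.
Sdha: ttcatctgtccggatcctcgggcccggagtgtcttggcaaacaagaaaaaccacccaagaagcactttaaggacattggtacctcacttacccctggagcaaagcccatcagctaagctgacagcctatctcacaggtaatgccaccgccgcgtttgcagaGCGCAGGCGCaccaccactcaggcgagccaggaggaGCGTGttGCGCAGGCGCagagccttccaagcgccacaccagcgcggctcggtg
Cox8a: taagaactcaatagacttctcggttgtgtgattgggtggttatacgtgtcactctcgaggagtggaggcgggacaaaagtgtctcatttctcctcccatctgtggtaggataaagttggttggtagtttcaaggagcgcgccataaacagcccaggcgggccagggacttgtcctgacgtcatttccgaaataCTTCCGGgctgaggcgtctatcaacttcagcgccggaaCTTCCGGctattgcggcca

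The exposure reached the cells. Cyp1a1, a P450 induced through the AhR, was 3.45 and 3.28 log2 on the vehicle arrays and 12.77 and 11.69 at the highest TCDD dose, in pools 1 and 2. The PCB 126 arrays at -12 differed in it, with 3.21 in pool 1 and 10.80 in pool 2. In pool 2 the PCB 126 array labelled -12 thus read above that at -11, with 7.91, and level with that at -10, with 10.84, so its Cyp1a1 value goes against the order of the doses. Results for members that rest on it are given without it where they moved. Of 8 hepatocyte markers 7 were on the array and all 7 passed the filter, with a summed signal between 14.74 and 15.20 log2. Markers of other liver cells were also detected. On the array, 4 of 6 macrophage, 5 of 6 stellate cell, 1 of 3 endothelial and 2 of 3 bile duct markers passed, and the summed signal of the stellate cell list reached 11.39 log2. Of the others, C1qb and Csf1r of macrophages, Des of stellate cells, Pecam1 and Vwf of endothelium and Krt19 of bile duct did not pass. The array of TCDD at -10 in pool 1 stood apart, with 8.42% of all tested probe sets more than 1 log2 below their pool median, and the array of TCDD at -14 in pool 1 had 3.67%. In pool 2 the highest share was 3.58%, for PCB 126 at -5. The TCDD array at -14 was thus close to the highest of pool 2 and did not stand apart by this share. The members' median deviation from the pool median was -0.26 and -0.24 log2 on the first 2 of these arrays. The main counts and medians of members that moved without both are given so too. Leaving out that pair was chosen after the data were seen, and the array at -14 is an end of the TCDD dose range.

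Along the dose of either chemical, 1 member fell and no other member passed the test. Ndufb9, an accessory subunit of complex I, was 9.83 log2 on the vehicle array of pool 1 and 10.23 on that of pool 2. Under TCDD it was 9.42, 9.95, 8.69, 9.17 and 8.95 in pool 1 from -14 to -6.5, and 10.29, 10.23, 9.96, 9.77, 9.47, 9.43 and 9.35 in pool 2. Under PCB 126 it was 9.83, 9.59, 8.94, 8.49 and 8.82 in pool 1 from -12 to -5, and 10.15, 9.93, 9.84, 9.62, 9.73, 9.71 and 9.15 in pool 2. In pool 2 every TCDD dose was lower than the dose before it, and in both pools the 2 highest doses of each chemical lay below the vehicle array of the same pool.

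Ndufb9 fell by 0.12 ± 0.028 log2 (SE) per decade of TCDD dose (limma adjusted p = 0.017) and by 0.14 ± 0.029 per decade of PCB 126 dose (adjusted p = 0.0060), in 12 arrays each. Within the pools the TCDD slope was -0.092 and -0.15, and the PCB 126 slope was -0.18 and -0.11. Against vehicle, the 2 highest PCB 126 doses were lower by 0.99 ± 0.22 log2, which is 1.98-fold (adjusted p = 0.019), and the 2 highest TCDD doses differed by -0.81 ± 0.22 log2 (adjusted p = 0.073). These comparisons share the 2 vehicle arrays. The slopes differed by 0.019 log2 per decade (95% interval -0.064 to 0.10, adjusted p = 0.87) and the top doses by 0.18 log2 (95% interval -0.19 to 0.56, adjusted p = 0.98), so no difference between the chemicals was found, within a bound of 0.56 log2 at the top doses. The doses compared at the top were not equal, with TCDD at -8 and -6.5 and PCB 126 at -6 and -5.

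**Figure D1:**
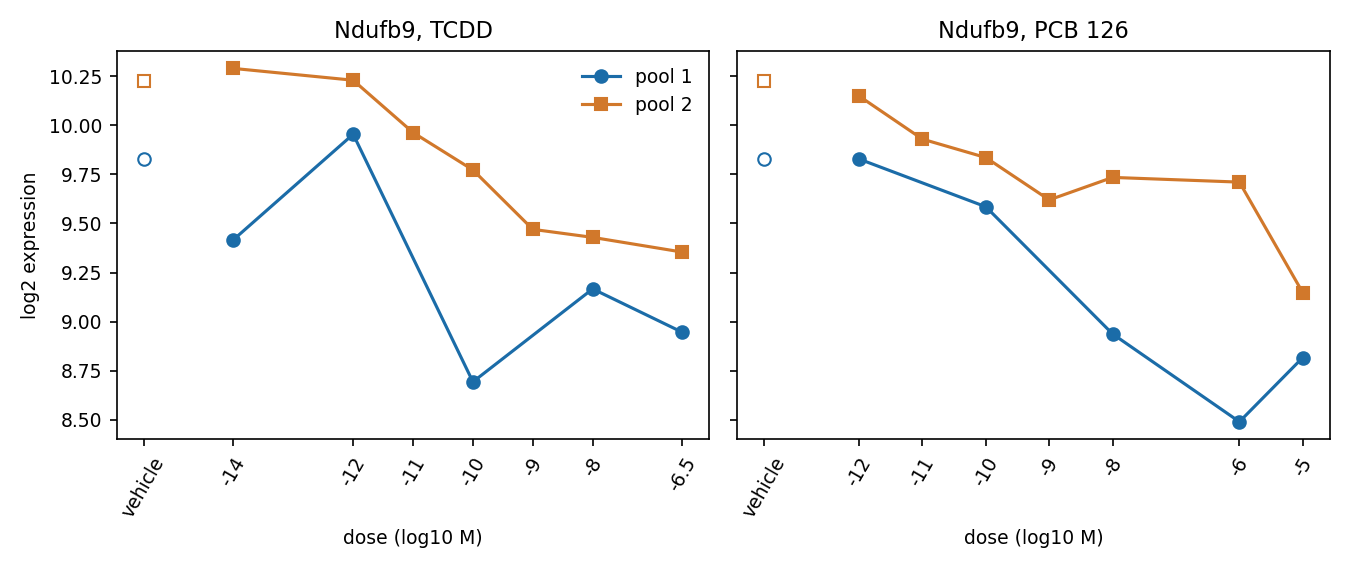
Ndufb9 log2 expression (vertical axis) against log10 M dose of TCDD (left) and PCB 126 (right), with 1 point per array, circles for pool 1, squares for pool 2 and open symbols for the vehicle array of the pool. In pool 2 the values run from 10.29 at the lowest TCDD dose to 9.35 at the highest, and from 10.15 to 9.15 under PCB 126.

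The Ndufb9 calls did not hold under all settings. The TCDD trend call was lost with arrays centred on their own medians (adjusted p = 0.057), without the pool as a block (0.31), in pool 1 alone (0.58), without the highest dose (0.068), with TCDD arrays only (0.13) and without the pool 2 array at -14 (0.059). The PCB 126 trend call was lost without the block (0.099), in pool 1 alone (0.62), without the highest dose (0.059) and without the pool 1 array at -12 (0.056). The PCB 126 top-dose call was lost without the block (0.71), without the vehicle array of pool 1 (0.19) or of pool 2 (0.099), and without the pool 1 array at -6 (0.064) or the pool 2 array at -5 (0.069). The TCDD top doses passed with the lowest dose joined to vehicle (0.032), and without either array of TCDD at -10 (0.049 in both fits) or either array of PCB 126 at -6 (0.047 and 0.048). Without the pool 1 arrays of TCDD at -14 and -10, the TCDD slope of Ndufb9 was -0.15 (adjusted p = 0.0037), and the TCDD top doses passed (0.040). The estimate was negative in each of these fits. Without the pool 2 array labelled PCB 126 at -12, Ndufb9 kept its PCB 126 trend call (adjusted p = 0.012).

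Single markers of hepatocytes and of other cells also moved with dose. Of 4 macrophage markers tested, 1, Lyz2, fell per decade by 0.19 log2 with TCDD (adjusted p = 0.0092) and by 0.17 with PCB 126 (0.022), and of 5 stellate cell markers, 1, Tagln, fell by 0.48 with PCB 126 (0.0055). Of 7 hepatocyte markers, 1, Cps1, fell by 0.21 with TCDD (0.025). The 2 bile duct markers and the endothelial marker had no call in a trend. Of all probe sets tested, 1.46% fell with TCDD and 2.69% with PCB 126. The median slope of the macrophage list was -0.012 with TCDD and 0.037 with PCB 126. That of the stellate cell list was 0.0010 with PCB 126, and that of the hepatocyte list -0.056 with TCDD. The part of these markers in the Ndufb9 result was not tested.

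For TCDD, 1 of 87 members fell, against 3.1% of all 5199 probe sets tested that passed in either direction, 1.46% that fell and 1.63% that rose. At an unadjusted p below 0.05 there were 8 members (9.2%, beside 14.5% of all). Without the pool 1 arrays of TCDD at -14 and -10 there were 13 of 87, beside 699 of all 5199. With all arrays, the median slope of the members was -0.0052 log2 per decade, beside -0.0094 for all probe sets tested. Of the 87 slopes 34 were positive, beside 36.6% of all probe sets tested. That median rested on 1 array. Without the pool 1 array of TCDD at -14 it was -0.028 with 22 positive (all probe sets -0.0057), without that at -10 as well it was -0.032 with 20 positive (all -0.0038), and without the pool 2 array at -14 it was 0.0026. For PCB 126 also 1 of 87 members fell, against 4.25% of all probe sets tested in either direction, 2.69% that fell and 1.56% that rose. An unadjusted p below 0.05 was found in 10 members (11.5%, beside 16.9% of all). Without the pool 1 arrays of TCDD at -14 and -10 it was found in 14 members and 1322 of all 5199. Without the pool 2 array labelled PCB 126 at -12 it was found in 6 and 956. With all arrays, the median PCB 126 slope was -0.0032, beside 0.0061 for all, and from -0.011 to 0.0065 when each array was left out in turn. Each share of members, 1 of 87, rests on a single probe set. With each array centred on its own median, the array as a whole had 69 higher and 34 lower calls for TCDD in place of 85 and 76, and 50 and 163 for PCB 126 in place of 81 and 140. Ndufb9 kept its PCB 126 call under this setting.

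By complex, the median TCDD slope was -0.014 log2 per decade in the 41 tested probe sets of complex I, of which 30 were negative, beside 3296 of all 5199. It was -0.066 in the 2 of complex II, -0.016 in the 6 of complex III, 0.012 in the 21 of complex IV and -0.0018 in the 17 of complex V. The PCB 126 medians were -0.0089, -0.0025, 0.0074, 0.017 and -0.016 in the same order.

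In each complex the member with the smallest p in each trend is given, and apart from Ndufb9 none of them passed. In complex II, Sdha, the flavoprotein that oxidises succinate, had a TCDD slope of -0.10 ± 0.046 (adjusted p = 0.31) and a PCB 126 slope of -0.0081 ± 0.047 (adjusted p = 0.94). In pool 1 Sdha was 8.57 log2 on vehicle and 9.11, 8.15, 7.52, 8.88 and 7.10 from the lowest to the highest TCDD dose, and in pool 2 it stayed between 8.71 and 9.69 on all arrays. The low values were thus those of pool 1 at -10 and -6.5, and without the latter array the TCDD slope of Sdha was -0.046 (adjusted p = 0.95). In complex III, Uqcr11, a small subunit, had a TCDD slope of -0.029 ± 0.019 (adjusted p = 0.54), and Uqcrfs1, the Rieske iron-sulfur protein, a PCB 126 slope of 0.026 ± 0.021 (adjusted p = 0.49).

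In complex IV, a probe set of Cox8a (rc_AI102505_at), a small subunit, had the largest TCDD slope of the members, 0.25 ± 0.078 (adjusted p = 0.094). It rested on 1 array. Cox8a read 2.82 log2 at TCDD -14 in pool 1 and between 5.71 and 7.76 on every other array, and without that array the slope was 0.064 (adjusted p = 0.79). It passed without the pool 2 array of TCDD at -14 (0.049) or at -6.5 (0.047). Cox7a2l (rc_AI232307_at) had the smallest p for PCB 126 in complex IV, with a slope of -0.074 ± 0.033 (adjusted p = 0.25). In complex V, Atp5pb, a subunit of the peripheral stalk, had a PCB 126 slope of -0.096 ± 0.032 (adjusted p = 0.095) and a TCDD slope of -0.013 ± 0.032 (adjusted p = 0.88). Under PCB 126 Atp5pb was 9.35, 9.02, 8.66, 8.74 and 8.24 in pool 1, beside 8.80 on vehicle, and in pool 2 it was between 9.81 and 9.98 up to -6 and 9.17 at -5, beside 10.17 on vehicle. The PCB 126 slope of Atp5pb passed with PCB 126 arrays only (adjusted p = 0.022), without the pool 1 array of TCDD at -8 (0.035) and without that of PCB 126 at -6 (0.043). The inhibitor Atp5if1 (rc_AA891873_f_at) had a TCDD slope of 0.051 ± 0.028 (adjusted p = 0.41).

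**Figure D2:**
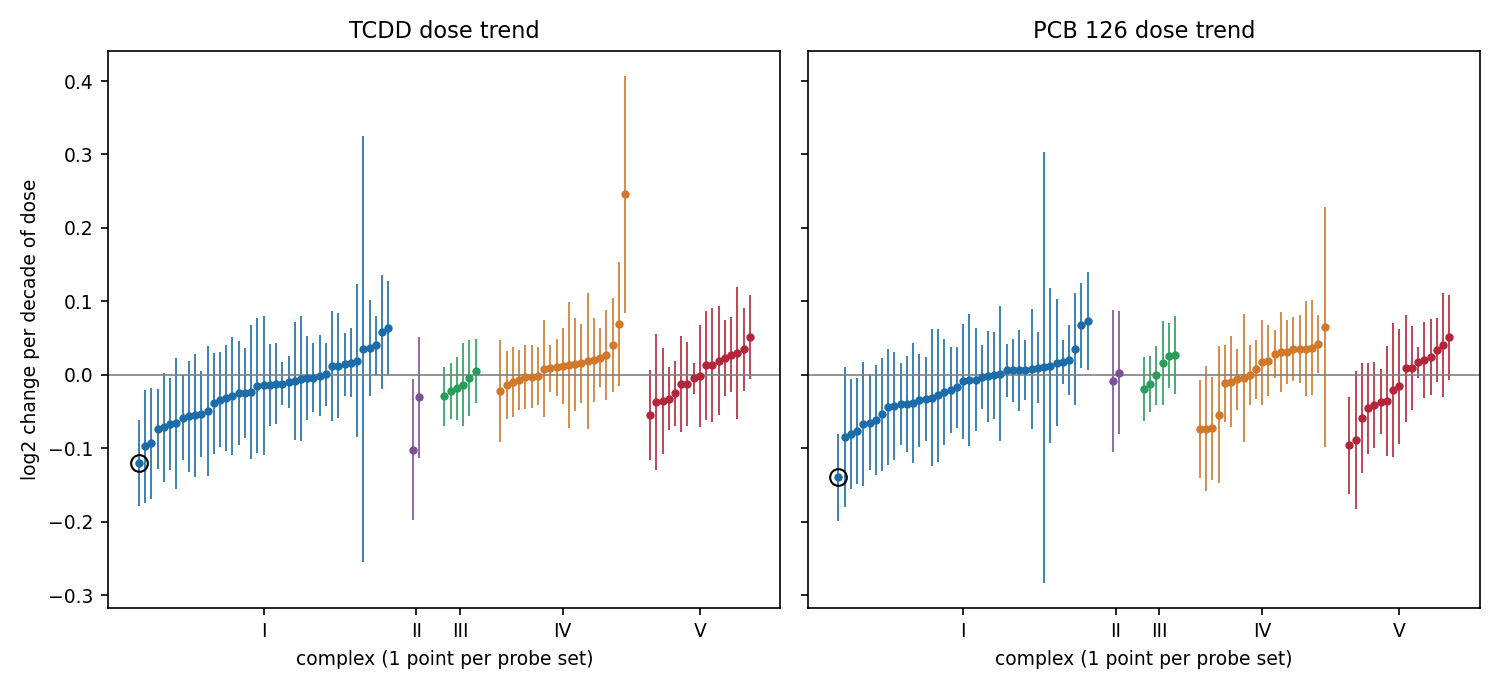
Change in log2 expression per decade of dose (vertical axis) for each of the 87 tested member probe sets, sorted within complexes I to V, with 95% intervals, for TCDD (left) and PCB 126 (right). The circled point is Ndufb9, the 1 member that passed the test, and the high TCDD point of complex IV at 0.25 is the Cox8a probe set that rested on 1 array.

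The intervals limit what could have been missed. The median half-width of a 95% interval was 0.061 log2 per decade for TCDD and 0.062 for PCB 126. For each chemical the interval of 85 of 87 members lay within 0.2 log2 per decade of 0, and in 53 for TCDD and 51 for PCB 126 within 0.1. The doses spanned several decades, so a slope within these bounds can add up to a larger change over the whole range. For the top doses against vehicle, the median half-width was 0.45 log2 for each chemical. There the interval lay within 1 log2 of 0 in 77 of 87 members for TCDD and 76 for PCB 126. It lay within 0.2 log2 in 0 members for either chemical.

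At the top doses no member passed for TCDD against vehicle, while 2.25% of all probe sets tested passed (1.35% higher and 0.904% lower), and 1 member, Ndufb9, passed for PCB 126, against 3.04% of all, 1.48% lower and 1.56% higher. At an unadjusted p below 0.05 there were 7 members for TCDD (8.0%, beside 10.9% of all) and 8 for PCB 126 (9.2%, beside 13.3%). Without the pool 1 arrays of TCDD at -14 and -10 there were 10 for TCDD, beside 706 of all 5199, and 14 for PCB 126, beside 839. With all arrays, the medians were -0.018 log2 for TCDD and 0.015 for PCB 126, beside -0.063 and -0.018 for all probe sets tested. Their sign rested on the vehicle arrays. Without that of pool 1 the medians were -0.12 with 21 positive and -0.084 with 25 positive, and without that of pool 2 they were 0.040 with 49 positive and 0.075 with 48 positive. In complexes I to V in order, the TCDD medians were -0.13, -0.23, 0.0067, 0.063 and -0.016. Those of PCB 126 were -0.075, -0.079, 0.022, 0.12 and 0.027. Centring changed the calls on the array as a whole for TCDD from 70 higher and 47 lower to 57 and 9.

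Of the members with an unadjusted p below 0.05, chosen after their values were seen, Ndufab1 (AA799336_at), the acyl carrier protein of mitochondria, differed by -0.81 log2 at the top TCDD doses (adjusted p = 0.12) and by -0.53 at those of PCB 126 (adjusted p = 0.35). Ndufa9, a subunit of complex I, differed by -0.58 (adjusted p = 0.41) and -0.62 (adjusted p = 0.29). Atp5if1 (rc_AA891873_f_at) differed by 0.39 (adjusted p = 0.44) and 0.38 (adjusted p = 0.38). None of these passed, and each pair shares the vehicle arrays.

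**Figure D3:**
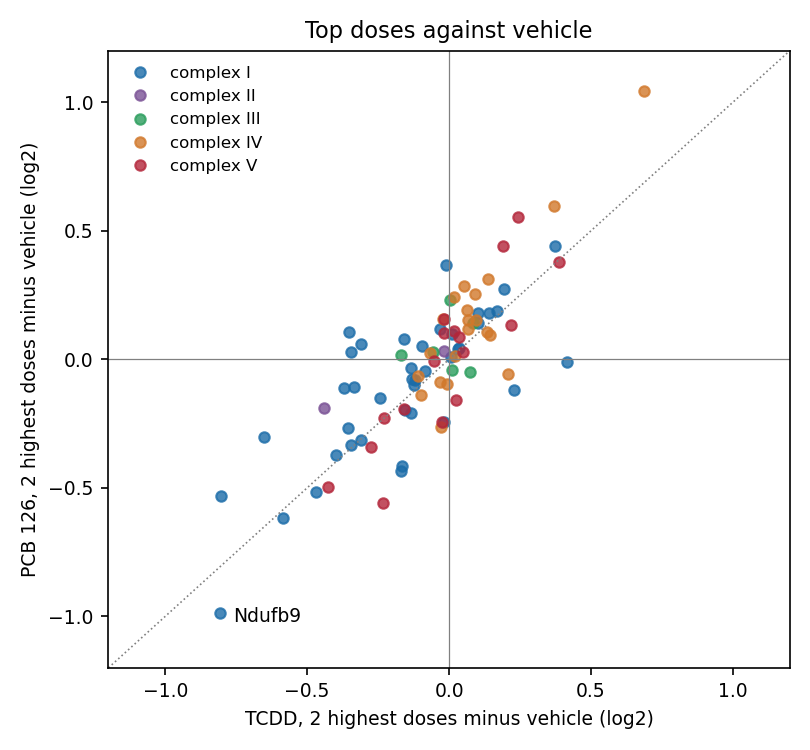
Difference in log2 expression between the 2 highest doses and vehicle for each of the 87 tested member probe sets, for TCDD (horizontal axis) and PCB 126 (vertical axis), coloured by complex, with a dotted line of equal values. Both axes use the same 2 vehicle arrays, which moves points along the dotted line. Ndufb9 lies at -0.81 and -0.99.

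TCDD and PCB 126 were compared directly over 87 members in 3 ways. In the slopes, in the top doses and at the doses -12, -10 and -8 that both pools received of both chemicals, 0 members and 0% of all probe sets tested passed in limma. Unadjusted p was below 0.05 in 4 members for the slopes (342 of all probe sets tested), in 2 for the top doses (180) and in 5 at the matched doses (367). The median difference of the slopes was -0.0012 with 42 positive (all probe sets -0.012). Without the pool 1 TCDD arrays of the lowest dose and of -10, it was -0.020 with 24 positive (all -0.011). That pair was chosen after the data were seen. In the top doses, the median of the members was -0.046 log2 with 30 positive, beside -0.029 and 42.2% positive for all probe sets tested. At the matched doses, the median of the members was -0.085 log2, TCDD minus PCB 126, beside 0.012 for all probe sets tested. Of the 87 members 20 were positive, beside 52.2% of all probe sets tested. The median was -0.15 in pool 1 and -0.012 in pool 2. Without that pair of pool 1 TCDD arrays, 1 of which is a matched dose, it was -0.042 with 25 positive. With the arrays of pool 2 at -11 and -9 added, it was 0.00025 with 44 positive, and with centred arrays -0.16 with 9 positive. Without the pool 2 array labelled PCB 126 at -12 it was -0.12 with 18 positive. The Ndufb8 probe set rc_AA999168_at passed at the matched doses without the pool 2 array of TCDD at -10 (1.88 log2, adjusted p = 0.00048), and its high value on 1 array is given with the pools. For a single member the 95% interval of the matched difference had a median half-width of 0.30 log2. In 85 of 87 it lay within 1 log2 of 0, which bounds the difference and does not show that the chemicals act alike.

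Many more members passed between the pools than along a dose. Between pool 2 and pool 1, 55 of 87 members were higher in pool 2 and 13 lower, against 39.6% and 38.8% of all probe sets tested, or 78.4% in either direction. The share of members called, 78.2%, was that of the array as a whole. The median of the members was 0.38 log2, beside 0.032 for all. It was positive in all 11 groups with both pools, from 0.10 at TCDD -6.5 to 0.68 at TCDD -14, with 0.54 on vehicle. With the arrays centred, the median was 0.66 beside 0.31 for all probe sets tested, with 70 members higher and 7 lower and 2957 and 1350 of all, so the split between higher and lower depends on the scaling. In bulk RNA, fewer cells of a type and less RNA per cell cannot be told apart.

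The median difference between the pools was 0.44 log2 in complex I, 0.63 in complex II, 0.17 in complex III, 0.14 in complex IV and 0.58 in complex V. It went with the level of the probe set. Of 68 members with a mean above 6 log2, 50 were higher in pool 2 and 2 lower, and of 19 with a mean up to 6, 5 were higher and 11 lower. The lower calls among the dim members include probe sets of Ndufb8 and Cox8b that passed the filter only through pool 1. They also include a probe set of Ndufs4 whose median in pool 2 was below the filter. The count of lower calls among the dim members is thus not independent of the filter. Over the whole array the split went with the level as well. Of 8740 probe sets with no filter on dim signals, 2087 were higher and 5360 lower, and of the 5199 tested 2058 and 2019. With a filter on the mean, 2004 of 4378 were higher and 1316 lower. Shares of all probe sets above and up to 6 log2 were not computed. The largest differences toward pool 2 were of Ndufc1 (rc_AI176491_at, 1.49 ± 0.16 log2, adjusted p = 2.7e-06), Ndufs4 (rc_AI013297_g_at, 1.47 ± 0.14, adjusted p = 1.3e-06) and Cox5b (D10952_i_at, 1.32 ± 0.18, adjusted p = 1.2e-05). Ndufc1 and Ndufs4 are accessory subunits of complex I and Cox5b a subunit of complex IV.

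Ndufc1 ranged from 3.96 to 5.85 log2 in pool 1 (median 4.78) and from 5.71 to 6.60 in pool 2 (median 6.19), which overlap by a little. Ndufs4 ranged from 6.52 to 8.11 (median 7.20) and from 7.94 to 9.54 (median 8.72). Cox5b ranged from 6.85 to 9.02 (median 8.08) and from 8.90 to 9.53 (median 9.32). The second probe set of Cox5b (rc_AI229620_s_at) averaged 10.88 ± 0.15 log2 over the 11 arrays of pool 1 and 10.82 ± 0.14 over the 15 of pool 2 (SD), so the 2 probe sets of this gene gave different pictures.

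The largest differences toward pool 1 were of Ndufb8 (rc_AA999168_at, -1.28 ± 0.51 log2, adjusted p = 0.036), Cox4i2 (-1.13 ± 0.12, adjusted p = 1.9e-06) and Cox8b (U40836mRNA_s_at, -0.82 ± 0.10, adjusted p = 7.1e-06). Cox4i2 and Cox8b are isoforms known from lung and from muscle. The probe sets of Ndufb8 and Cox8b passed the filter on dim signals only through pool 1. In pool 2 they read at most 2.91 and 3.09 log2, below the 3.71 of the filter. The Ndufa4l2 probe set AA686870_f_at, at most 3.70 in pool 2, also passed this way. The differences of these 3 probe sets toward pool 1 are thus not independent of the filter. Cox4i2 ranged from 5.67 to 6.82 in pool 1 and from 4.61 to 5.51 in pool 2, without overlap. The Ndufb8 probe set read 8.86 log2 at TCDD -10 in pool 1 and at most 4.09 elsewhere, and without that array the difference was -0.77 (adjusted p = 0.00030). The call was lost with centring (0.082) and in 9 fits that each left out another array (up to 0.062), namely vehicle, TCDD at -12 and -6.5 and PCB 126 at -10 and -5 of pool 1, and TCDD at -12 and -6.5 and PCB 126 at -10 and -5 of pool 2. The other tested probe sets of Ndufb8 differed by 0.27 and 0.38, in the opposite direction. Of 23 genes with several tested probe sets, 7 had probe sets called in opposite directions between the pools, namely Atp5if1, Cox4i1, Ndufa6, Ndufaf3, Ndufb5, Ndufb8 and Ndufs4. For Ndufb8, the probe set lower in pool 2 was the one that passed the filter only through pool 1. For Ndufs4 it was rc_AI175973_at, with a median of 3.41 log2 in pool 2, below the filter. The opposite calls of Ndufb8 and Ndufs4 are thus not independent of the filter.

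Every array of pool 2 lay above every array of pool 1 in 4 members and below in 4, beside 5.79% and 5.46% of all probe sets tested. Markers of other cells and array measures also differed between the pools. The difference between the 3' and 5' probe sets of actin averaged 0.82 ± 0.12 log2 over the 11 arrays of pool 1 and 1.51 ± 0.22 over the 15 of pool 2 (SD), and the reverse-strand probe sets averaged 5.12 and 3.86. Of the bile duct markers, 2 of 2 that passed were higher in pool 2, of which Spp1 was higher by 2.10 ± 0.14 log2. Of the hepatocyte markers, 2 of 7 were higher and 2 lower, and of 5 of the stellate cell list 2 were higher and 3 lower. Of the macrophage list, 1 of 4 was higher and 2 lower, and the single endothelial marker, Kdr, was lower. Beside these counts, 39.6% of all probe sets tested were higher in pool 2 and 38.8% lower. The summed signal ranged from 7.78 to 11.04 in pool 1 and from 8.53 to 11.39 in pool 2 for the stellate cell list, from 7.62 to 8.80 and from 7.98 to 9.04 for macrophages, from 5.13 to 6.40 and from 4.77 to 5.37 for endothelium, and from 5.58 to 6.37 and from 6.51 to 7.44 for bile duct. The part of these markers and array measures in the difference between the pools was not tested.

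**Figure D4:**
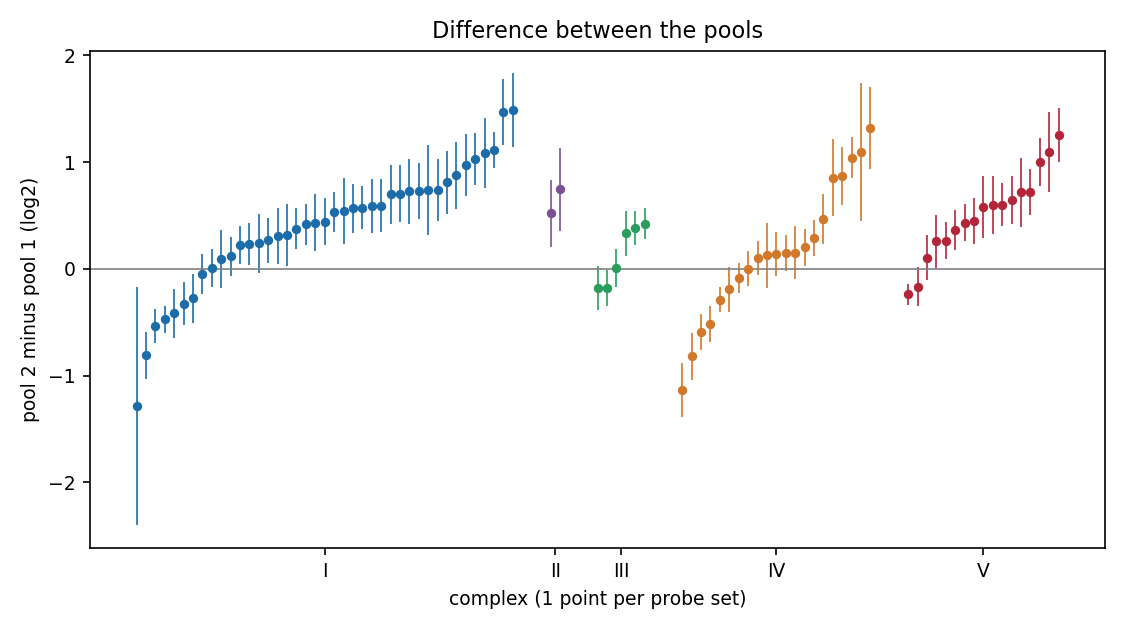
Difference in log2 expression between pool 2 and pool 1 (vertical axis) for each of the 87 tested member probe sets, sorted within complexes I to V, with 95% intervals. Complexes I and V lie mostly above 0, with medians of 0.44 and 0.58, and complex IV reaches from -1.13 to 1.32.

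No difference between the pools in the slope on dose passed the test for any member. For TCDD, the median slope of the members was 0.030 log2 per decade in pool 1 and -0.036 in pool 2, and 27 of 87 members had the same sign in both, beside 52.4% of all probe sets tested. The test of the difference between the slopes called 0 members and 0% of all probe sets in limma, and had an unadjusted p below 0.05 in 17 members (19.5%) and in 405 of all probe sets tested (7.79%). Without the pair of pool 1 TCDD arrays left out after the data were seen, there were 7 members and 303 of all probe sets. That pair holds the array of the lowest TCDD dose. With all arrays, the median difference between the slopes was -0.059 with 17 of 87 positive, beside 58.6% of all probe sets tested. Without those 2 arrays it was -0.018 with 38 positive. For PCB 126 the median slopes were -0.022 and 0.013, with the same sign in 52 of 87 members beside 74.4% of all probe sets tested, 0 members and 0% of all called, and an unadjusted p below 0.05 in 2 members (79 of all).

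Arrays of pool 1 scattered more. The median SD of a member was 0.32 log2 over the arrays of pool 1 and 0.20 over those of pool 2, and 73 of 87 members (83.9%) had the higher SD in pool 1, beside 77.3% of all probe sets tested. On the TCDD -10 array of pool 1, the deviation from the pool median was -0.26 in complex I, -0.92 in complex II, -0.32 in complex III, -0.016 in complex IV and -0.66 in complex V, so complex IV was near its pool median there. On the TCDD -14 array of pool 1 it was -0.27 in complex I, 0.58 in complex II, 0.0036 in complex III, -0.35 in complex IV and -0.26 in complex V, so the 2 probe sets of complex II lay on the other side of their pool median there. The lowest value of any complex and array was -1.07, of complex II on the TCDD -6.5 array of pool 1. In pool 2, the PCB 126 array at -5 had -0.27 in complex I and 0.16 in complex IV, and the TCDD array at -11 had 0.35 in complex I. That TCDD array also had the largest actin 3' to 5' difference, 2.19 log2. Their part in the results was not tested.

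**Figure D5:**
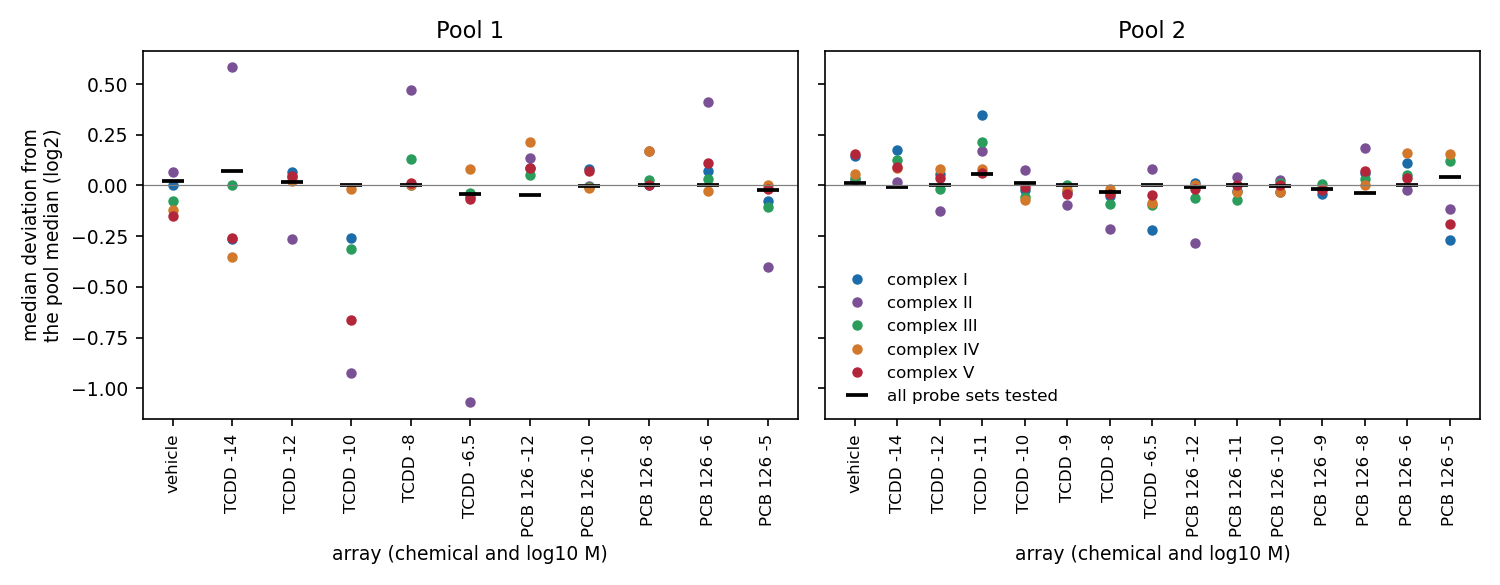
Median deviation of the members of complexes I to V from their pool median (log2, vertical axis) on each of 11 arrays of pool 1 (left) and 15 of pool 2 (right), with black bars for all probe sets tested. The lowest points are complex II, which has 2 probe sets, at -1.07 on TCDD -6.5 and -0.92 on TCDD -10 of pool 1, and complex V at -0.66 on TCDD -10 of pool 1.

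Other mitochondrial genes were read from lists. Of the other genes of oxidative phosphorylation, 13 of 32 were tested. They were Cyc1 (cytochrome c1), Etfa, Etfdh, Slc25a3, Slc25a4, Slc25a5, Slc25a10, Slc25a11, the porin Vdac1, Ucp2, Coq3, Gpd2 and Dhodh, with no assembly factor among them. Of these, 0 passed in the TCDD trend, the PCB 126 trend or either comparison of top doses with vehicle. At an unadjusted p below 0.05 there were 2 and 4 in the trends of TCDD and PCB 126 and 3 in each comparison of top doses, where 14.5%, 16.9%, 10.9% and 13.3% of all probe sets tested had one. Of 12 tested genes of the tricarboxylic acid cycle and pyruvate dehydrogenase, 2 fell with PCB 126, where 2.69% of all probe sets tested fell, and 0 passed with TCDD, where 2 had an unadjusted p below 0.05. These were Pdhb, by 0.14 ± 0.036 log2 per decade (adjusted p = 0.031), and Dlat, by 0.10 ± 0.030 (adjusted p = 0.049), both parts of the pyruvate dehydrogenase complex. Of 12 mitochondrial chaperones and antioxidants, Sod2, the mitochondrial superoxide dismutase, rose with PCB 126 by 0.24 ± 0.062 (adjusted p = 0.024), where 1.56% of all probe sets tested rose. The 3 tested regulators of mitochondrial biogenesis gave no call in either trend, with 0 at an unadjusted p below 0.05. Between the pools, 10 of the 12 genes of the cycle list were higher in pool 2 and 2 lower, 8 of 13 of the oxidative phosphorylation list were higher and 1 lower, and 8 of the 12 chaperones and antioxidants were higher and 1 lower. Of all probe sets tested, 39.6% were higher and 38.8% lower. That split moved to 2957 and 1350 probe sets with centred arrays, and for these lists it was not recomputed.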

How the data were processed

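Hepatocyte RNA was measured on 26 short-oligonucleotide arrays. The deposited values are log2 expression, from -1.43 to 15.01, made by the authors with GCRMA 2.8.0; RMA is also named, without a role, per the submitters' processing notes. GCRMA compresses differences between dim values. Scanner files were not used here. Groups, doses and pools come from the labels, and 0 columns were left over. Of 8740 probe sets that were not controls, 5199 were kept whose second-highest value exceeded the median of all values, 3.71. With limma 3.58.1 (R 4.3.3; lmFit, then eBayes, trend and robust on), the fit held pool, chemical and a slope on log10 dose per chemical (20 residual degrees of freedom), or pool and 15 groups (10), with Benjamini-Hochberg adjustment over 5199 and a threshold of 0.05. Pool is a block because its arrays share animals, per the labels; deviations of same-pool arrays correlated at 0.46 to 0.89 over 55 pairs of groups. Named members were those called, the smallest p per complex in each trend, and the 3 largest pool differences each way. The members and lists were chosen with earlier results of these data known. The procedure was tested on simulated data.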

Additional observations from a re-analysis of the deposited data

How the results depend on the processing

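The number of members called was recomputed under other settings, along with the median of the members and the named members. For the TCDD trend, 1 member was called, and 0 with arrays centred on their medians, with no replicate block, in pool 1 alone, without the highest dose and with the arrays of TCDD only. Without the 2 pool 1 arrays of TCDD at -14 and -10, a setting chosen after seeing the data, 2 were called. For the PCB 126 trend, 1 was called, 0 with no replicate block, in pool 1 alone and without the highest dose, and 2 in pool 2 alone, with vehicle set a decade under the lowest dose, with the arrays of PCB 126 only and without those 2 arrays. For the TCDD top doses 0 were called, and 1 with the lowest dose joined to vehicle and without those 2 arrays, and for the PCB 126 top doses 1, and 0 with no replicate block. The median for the PCB 126 top doses was -0.10 at the single highest dose, and the pool median was 0.66 with centring. Leaving out each array in turn gave 1 to 2 members in the TCDD trend, 0 to 2 in the PCB 126 trend, 0 to 1 in each comparison of top doses with vehicle and at the matched doses, and 62 to 69 between pools, with a median of -0.084 to 0.075 log2 for the PCB 126 top doses, -0.12 to 0.040 for those of TCDD and -0.028 to 0.0026 per decade for the TCDD trend. Sdha reversed in the PCB 126 trend, at 0.0068 in pool 2 alone and 0.045 without the highest dose, with -0.039 to 0.014 when leaving out an array. The Ndufb9 difference between the slopes reversed to -0.042 in pool 2 alone and -0.0089 without the 2 arrays, with -0.0038 to 0.035 when leaving out an array. The cause of these changes was not tested. Other filters on dim probe sets and plain moderation of the variance left the counts of members called for doses and chemicals as they were. Between the pools, members gave 56 higher and 25 lower with no filter, 55 and 10 with a filter on the mean and 56 and 14 with plain moderation, in place of 55 and 13. All probe sets moved too, from 2058 higher and 2019 lower of 5199. They gave 2087 and 5360 of 8740 with no filter, 2004 and 1316 of 4378 with a filter on the mean, and 2070 and 2034 with plain moderation. The members added were Ndufab1 (rc_AA891651_g_at) for TCDD and Ndufa6 for PCB 126 without the 2 arrays, Atp5po for PCB 126 in pool 2 alone and with the other vehicle dose, and Atp5pb with PCB 126 arrays only. Depth is not defined for arrays, whose number, 1 per dose and pool, limits the precision.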

Other observations

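6 further probe sets name several genes, at least 1 of them of the family, and were left out of the counts. All 6 were higher in pool 2, beside 39.6% of all probe sets tested. Each read above 6 log2 on all arrays, a level at which 50 of 68 members were higher. The differences ran from 0.33 ± 0.12 log2 (SE) for Ndufs5 with Ndufs5-ps2 to 0.66 ± 0.087 for Cox5a with LOC100361008, the latter with adjusted p = 9.4e-06 in limma. Cox5a is a subunit of complex IV. Its probe set shared with LOC100361008 ranged from 10.06 to 10.65 log2 in pool 1 and from 10.65 to 11.37 in pool 2. The probe set of Cox5a alone (rc_AI104513_at) averaged 4.47 and 4.62. None passed in a dose trend. The smallest adjusted p was that of the probe set of Cox7a2, another subunit of complex IV, and Cox7a2l2. Its TCDD slope was -0.079 ± 0.029 log2 per decade (limma adjusted p = 0.16).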
